A study of Caenorhabditis elegans with 2 samples.

Results

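The genes examined here encode translation factors other than initiation factor 3, together with the aminoacyl-tRNA synthetases, in chromatin immunoprecipitation followed by sequencing (ChIP-seq) of the GFP-tagged C2H2-type domain protein C38D4.7 from late C. elegans embryos. They were chosen by symbol alone, in the RefSeq annotation of WBcel235. Symbols taken were eef-, eif- (without the eif-3 subunits), ife- and iff- followed by a number, inf-1, and synthetases of 1 letter plus ars-1 or ars-2. In all, 61 genes had such a symbol. The gene cars-2, annotated as a pseudogene, was left out, which gave 60 members of 19983 protein-coding genes: 20 initiation factors, 2 eIF5A genes, 6 elongation factors and 32 synthetases.

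The study has 1 group of 2 biological replicates. Whole late embryos of strain OP708, of mixed sex, labelled 4 hours old and synchronised by egg bleaching, carried the mutation unc-119(tm4063) and the transgene wgIs708, which holds C38D4.7 fused at its C-terminus to TY1, EGFP and 3xFLAG along with unc-119(+). Both replicates came from this 1 line, and the transgene adds to the animals' own C38D4.7 gene, whose state the labels do not give. Tagged protein was precipitated with an antibody against GFP from chromatin sheared to a stated size range of 200 to 800, with no unit given. The labels give no second condition, and no list from an untagged strain was used here, so whether a region is specific to C38D4.7 was not tested. Whole embryos mix all tissues, and the cells in which a region was bound cannot be told apart.

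Proteins of this kind carry out the steps of translation. Synthetases join each amino acid to its tRNA, initiation factors bring the first tRNA and the mRNA to the small ribosomal subunit, and elongation factors deliver the charged tRNAs and move the ribosome along. Most tissues need these genes, and each synthetase acts either in the cytosol or in mitochondria or in both. In C. elegans many mRNAs receive a spliced leader, so the annotated start of a gene can lie downstream of the place where transcription begins.

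Of the 60 members, 4 held a summit of the authors' optimal list in the promoter, taken as 1000 bp upstream to 200 bp downstream of the gene start (6.67%). The same was true of 385 of 19983 protein-coding genes, a background of 1.93%. The count was 2 (3.33%) in the top 649 lines of either replicate alone, with backgrounds of 1.89% in replicate 1 and 1.76% in replicate 2, and 1 (1.67%, background 0.951%) in the higher-scoring 324 optimal lines. The members were ears-2, a mitochondrial glutamyl-tRNA synthetase, at rank 32 of 649, iff-2, which encodes an eIF5A, at rank 525, eef-1A.1, which encodes elongation factor 1-alpha, at rank 544, and eif-2Bgamma, a subunit of the exchange factor for eIF2, at rank 648. A summit is the point of highest signal in a region, and ranks follow, from 1 for the highest, the authors' score, which has no stated scale and was read only within its own list. Each role class had 1 such gene, but the classes differ in size. It was 1 of 20 initiation factors, 1 of 2 eIF5A genes, 1 of 6 elongation factors and 1 of 32 synthetases. With 1 gene in each class, no spread over roles is read from this. The initiation factor, eif-2Bgamma, dropped out without summits within 200 bp of tRNA, snoRNA, snRNA and rRNA genes. In rank ears-2 stood far above the others, and eif-2Bgamma was the second line from the end of the list. The next member in the longer pooled list, eef-1A.2, ranked 1262, and no member lay between.

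The sequence of 50 bp on either side of the summit is shown for these 4 genes, because they are the promoters on which the counts rest, and for eef-1A.2, the paralogue of eef-1A.1 that fell outside the optimal list. Each is written 5′ to 3′ in the direction of the gene, from the RefSeq sequence of WBcel235, the assembly that the files call ce11. Capitals mark a match, on either strand, to any of 5 6-mers that were picked with earlier results of these peaks known and are spelled out with their shares after the positions. Positions are given as summit minus start, negative upstream.
ears-2: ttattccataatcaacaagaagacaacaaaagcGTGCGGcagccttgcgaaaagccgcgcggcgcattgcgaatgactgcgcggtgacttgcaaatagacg
iff-2: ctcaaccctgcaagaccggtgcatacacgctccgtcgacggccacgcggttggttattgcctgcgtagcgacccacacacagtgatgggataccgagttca
eef-1A.1: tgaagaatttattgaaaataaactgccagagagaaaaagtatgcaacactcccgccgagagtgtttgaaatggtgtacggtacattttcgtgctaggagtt
eif-2Bgamma: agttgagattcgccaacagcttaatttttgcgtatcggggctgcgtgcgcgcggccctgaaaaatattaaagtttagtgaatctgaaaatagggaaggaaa
eef-1A.2: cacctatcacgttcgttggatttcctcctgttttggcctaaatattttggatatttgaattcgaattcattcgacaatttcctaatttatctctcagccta
The windows span IV:390460-390560 for ears-2, II:8561385-8561485 for iff-2, III:6972102-6972202 for eef-1A.1, II:6968354-6968454 for eif-2Bgamma, all on the minus strand, and X:7823468-7823568 for eef-1A.2 on the plus strand. Only the ears-2 window held a match, CCGCAC on the other strand, with its first base at -17 bp from the summit. GC content was 51.5% at ears-2, 59.4% at iff-2, 39.6% at eef-1A.1, 43.6% at eif-2Bgamma and 35.6% at eef-1A.2, against a median of 50.5% over 629 nuclear optimal windows. Of the 66 runs of 36 bases in each window, 32 of those at eif-2Bgamma occurred more than once in the genome and 0 of those at the other 4 genes did.

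The ears-2 promoter had the highest-ranked signal of the set in every list. The summit lay at IV:390510, at -42 bp from ears-2 (IV:388686-390468, minus strand), in the short gap between its start and that of uncp-18, which encodes a syntaxin-binding protein and runs the other way (IV:390560-393158). The score was 912.7 in the optimal list, 616.9 at rank 34 in replicate 1 and 302.8 at rank 46 in replicate 2. The summits of the replicates were 26 bp apart and their regions overlapped by 240 bp. The summit was at -50 bp from uncp-18, nearly as near as to ears-2, so the region cannot be given to either gene alone. No annotated noncoding gene lay within 1000 bp of it, with piRNA genes left out of the search. Of all 60 promoters this was the only one with a summit among the top 649 lines of both replicate lists (1.67%, against 265 genes, 1.33%, of all protein-coding genes).

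The iff-2 summit lay at II:8561435 in intergenic sequence, at -471 bp from the gene (II:8559581-8560964, minus strand). The score was 200.4 in the optimal list, 110.1 at rank 902 in replicate 1 and 76.86 at rank 480 in replicate 2, with the summits 42 bp apart and an overlap of 423 bp. This region is therefore in the top 649 lines of replicate 2 only. The summit was also in the promoter of F54C9.14, annotated as a PID domain gene, at -867 bp and so farther than from iff-2. The snoRNA gene F54C9.12 lay 663 bp away, within the iff-2 gene. The other eIF5A gene, iff-1, had its best pooled candidate at rank 18558, 67 bp inside the gene, with no candidate in replicate 1 and rank 22254 in replicate 2. The factor eIF5A helps the ribosome past difficult stretches such as runs of proline, and carries the modified residue hypusine.

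The eef-1A.1 summit lay at III:6972152, at -440 bp from the gene (III:6970026-6971712, minus strand). The score was 194.9 in the optimal list, 145.1 at rank 478 in replicate 1 and 48.14 at rank 2454 in replicate 2. The summits of the replicates were 30 bp apart, so both replicates named the same place with unequal rank. The regions overlapped by 435 bp, which is not separate evidence, since both regions are centred on their summits. The start nearest to this summit was not that of eef-1A.1 but that of rfc-4, a subunit of the replication clamp loader, at -101 bp, which runs in the opposite direction (III:6972253-6973717). The microRNA gene mir-5549 lay 67 bp from the summit.

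At eif-2Bgamma the summit, II:6968404, was at -756 bp from the gene (II:6965800-6967648, minus strand) and inside an intron of the next gene on that strand, C15F1.5, whose end is 251 bp from the eif-2Bgamma start. It also lay inside sup-39 (II:6968394-6968558), a gene annotated as an snRNA, and inside the noncoding gene C15F1.14 (II:6968392-6968562). The gene mir-1831, also annotated as an snRNA, lay 126 bp away. The score was 180.1 in the optimal list, 117.0 at rank 770 in replicate 1 and 67.31 at rank 691 in replicate 2, and the summits were 140 bp apart. Neither replicate thus placed it within its top 649 lines. Without summits within 200 bp of tRNA, snoRNA, snRNA and rRNA genes, 3 members remained, ears-2, eef-1A.1 and iff-2 (5.00%, against 1.55% of all genes). The labels do not say how reads from the repeated sequence here were placed.

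**Figure D1:**
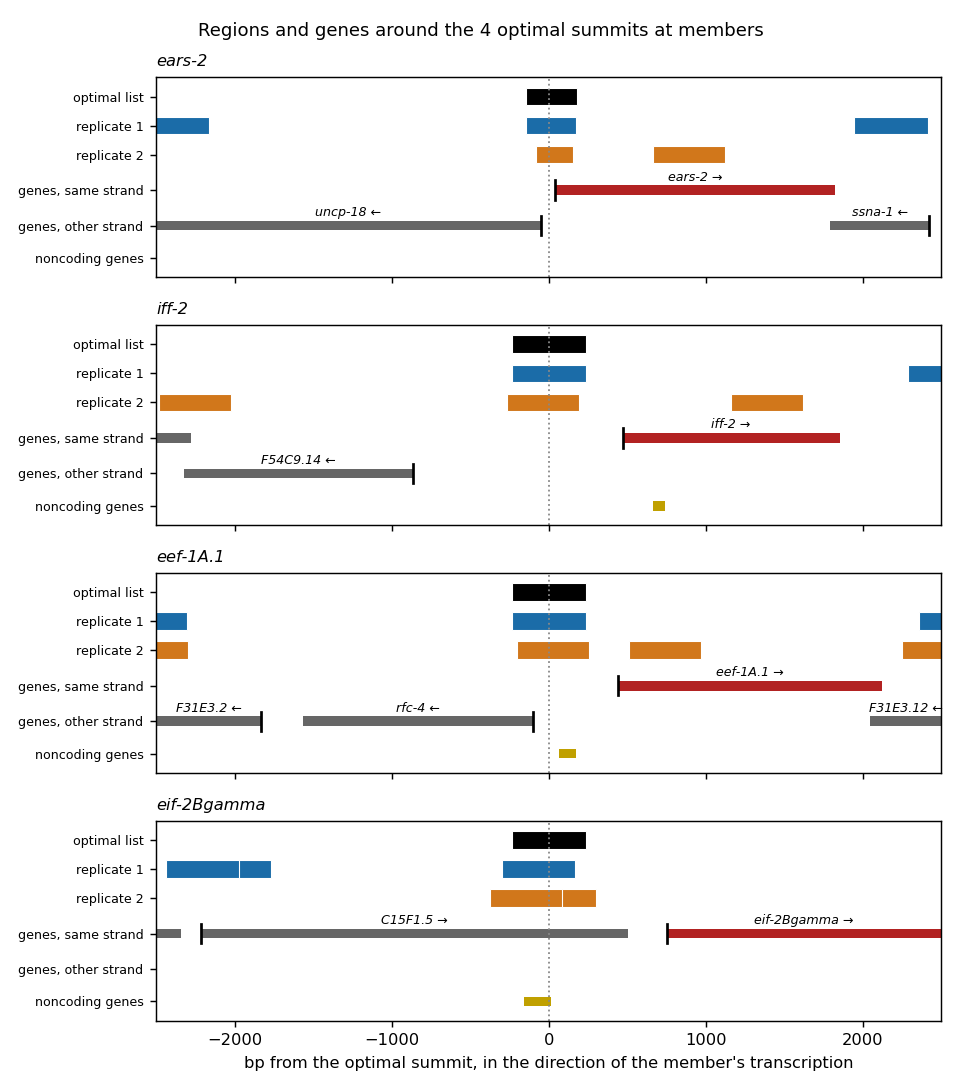
Regions of the optimal list (black), replicate 1 (blue) and replicate 2 (orange) around the 4 optimal summits, with the member in red, other protein-coding genes in grey and noncoding genes in yellow. The horizontal axis is the distance in bp from the optimal summit in the direction of the member, and black ticks are gene starts. In each panel both replicates have a region at the summit, and in the eef-1A.1 panel the start of rfc-4 is closer to it (-101 bp) than that of eef-1A.1 (-440 bp).

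Below the optimal list came 4 promoters whose ranks were close in the pooled list but not in the replicate lists. The pooled list, called on both replicates together, had 8 members with a summit among its top 2000 lines (13.3%, background 4.49%), and the 4 added ones ranked from 1262 to 1306. They were eef-1A.2, eef-2, tars-1 and eif-2D, and none of these summits lay within 200 bp of a tRNA, snoRNA, snRNA or rRNA gene. Another 5 followed between ranks 2328 and 2964, namely eif-1.A, kars-1, mars-1, yars-2 and ife-4. That made 13 members within the top 3000 lines (21.7%, background 6.10%).

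Of the 4, tars-1, the cytosolic threonyl-tRNA synthetase, had the closest ranks in the replicates. Its score was 142.1 in the pooled list, 89.94 at rank 1778 in replicate 1 and 51.43 at rank 1850 in replicate 2. The summit lay at -319 bp, in an intron of kel-1, and the replicate summits were 7 bp apart. For eef-2, which encodes the factor that moves the ribosome by 1 codon, the pooled score was 143.2, with 83.61 at rank 2396 in replicate 1 and 62.27 at rank 875 in replicate 2. Its summit was at -43 bp, and the promoter is shared with clsp-1, a claspin gene on the other strand. For eif-2D, named after a factor known in mammals for unusual initiation and recycling, the pooled score was 141.8, with 96.87 at rank 1376 in replicate 1 and 37.99 at rank 6313 in replicate 2. The summit, at -105 bp from eif-2D, was at -263 bp from ndub-5, a subunit gene of respiratory complex I that runs the other way.

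The paralogues of elongation factor 1-alpha had different orders of rank in the replicates, and different summit positions in the pooled list and replicate 2. In replicate 1 the best summits were at similar distances, -440 bp for eef-1A.1 and -417 bp for eef-1A.2. At eef-1A.2 the pooled score was 143.3, with a summit at -136 bp from the gene (X:7823654-7825769, plus strand) and inside the unclassified noncoding gene R03G5.8. Replicate 2 gave a score of 57.32 at rank 1186, with the summit at -182 bp. Replicate 1 gave 3 candidates, the best with a score of 78.62 at rank 3024 but at -417 bp, and a second at rank 4319 on the same summit as the pooled list. So eef-1A.1 was higher in replicate 1 (rank 478 against 3024) and eef-1A.2 in replicate 2 (rank 1186 against 2454), and the order of the pair was not the same in the replicates.

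**Figure D2:**
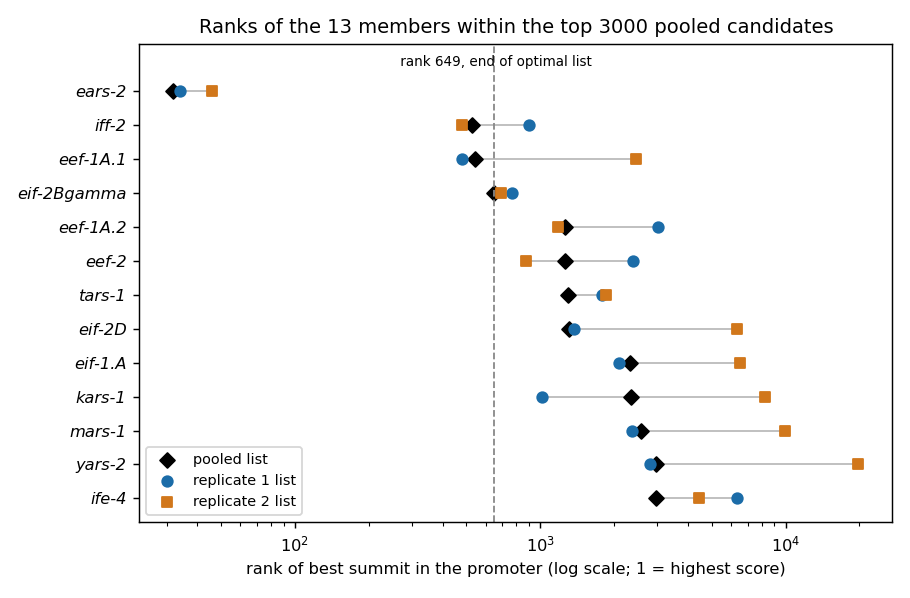
Rank of the best summit in the promoter of the 13 members within the top 3000 pooled candidates, in the pooled list (diamonds), replicate 1 (circles) and replicate 2 (squares), on a log axis where 1 is the highest score. The dashed line is rank 649, the end of the optimal list. The ranks of ears-2 lie close together (32, 34 and 46), while those of yars-2 spread from 2789 to 19768.

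Most members had some lower-ranked candidate. In the pooled list of 30000 lines 40 of 60 did (66.7%, background 33.6%), in replicate 1 39 (65.0%, background 33.9%), in the shorter replicate 2 list of 26661 lines 34 (56.7%, background 30.7%) and in both replicate lists 27 (45.0%, background 20.0%). Regions of both replicates overlapped by at least 1 bp in 25 promoters, all but those of eef-1B.2 and pars-2 among these 27. That is 92.6% of the promoters with candidates in both, beside 93.4% over all protein-coding genes. Neighbouring promoters can share a summit, so neither members nor genes are independent, and these shares are set side by side without a test.

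The translation factors were ahead of the synthetases in this respect. All 6 elongation factors, both eIF5A genes and 14 of 20 initiation factors had a pooled candidate, against 18 of 32 synthetases (56.2%). The share of all protein-coding genes was 33.6%. Within the top 5000 lines the counts were 11 of 28 factors (39.3%) and 6 of 32 synthetases (18.8%), beside 9.13% of all protein-coding genes. The difference between the classes was not tested. It was seen in replicate 2, where 23 of 28 factors and 11 of 32 synthetases (34.4%) had a candidate, beside 30.7% of all protein-coding genes. It was less in replicate 1, with 20 factors and 19 synthetases (59.4%), beside 33.9%. Candidates in both replicate lists were found at 8 synthetases (25.0%), beside 20.0% of all protein-coding genes. For the factors these counts were 13 of 20 initiation factors, 1 of 2 eIF5A genes and 5 of 6 elongation factors.

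**Figure D3:**
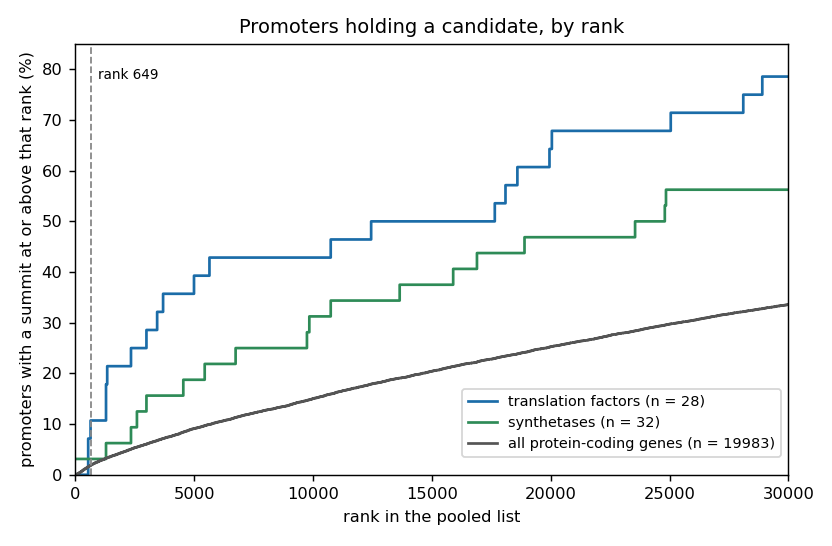
Share of promoters, in percent, that held a summit at or above each rank of the pooled list, for 28 translation factors (blue), 32 synthetases (green) and 19983 protein-coding genes (grey). The dashed line is rank 649. At rank 30000 the lines end at 78.6%, 56.2% and 33.6%.

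Among initiation factors, subunits of 1 complex had unlike values, but with so few genes nothing is read from this. Over all protein-coding genes 1.93% had an optimal summit and 33.6% a pooled candidate. Of the 3 subunits of eIF2, which carries the initiator tRNA, eif-2gamma had pooled candidates, the best at rank 17603, eif-2beta had only a replicate 2 candidate at rank 19344, and eif-2alpha had none. Of the 5 subunits of eIF2B, which reloads eIF2 with GTP, eif-2Bgamma was in the optimal list, eif-2Bbeta and eif-2Balpha had pooled ranks of 18081 and 28098, and eif-2Bdelta and eif-2Bepsilon had no candidate in any list. The cap-binding eIF4E genes had no optimal summit (0 of 5). Their best pooled ranks were 2964 for ife-4, 3436 for ife-5, 4971 for ife-2 and 5617 for ife-3, and ife-1 had no candidate in any list. In replicate 1 the best ranks of ife-4, ife-5, ife-2 and ife-3 were 6327, 2921, 3821 and 8969. In replicate 2 they were 4444, 14342, 15264 and 10833.

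The remaining initiation factors ranged widely. Genes of the factors that scan for the start codon were eif-1.A, at pooled rank 2328 (2100 in replicate 1, 6549 in replicate 2), and eif-1, at 12401. The gene eif-2A ranked 3686 with its summit 102 bp inside the gene. For eif-4A3, whose mammalian protein is a core part of the exon junction complex, the pooled rank was 20041, and for eif-6, a factor that keeps ribosomal subunits apart, it was 28886. The eIF4A helicase gene inf-1 had no pooled candidate and only rank 25992 in replicate 2.

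Elongation factors apart from eef-1A and eef-2 had low ranks. The genes eef-1B.1, eef-1B.2 and eef-1G encode parts of the complex that exchanges nucleotide on elongation factor 1-alpha. Their best pooled ranks were 19930, 10744 and 25030, and for eef-1B.2 the replicate regions did not overlap, with the best summits at -869 bp in replicate 1 and -172 bp in replicate 2.

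Among synthetases the large step was from ears-2, at pooled rank 32 and score 912.7, to tars-1, at rank 1296 and score 142.1. The genes kars-1, mars-1 and yars-2, for lysine, methionine and tyrosine, had pooled ranks of 2335, 2574 and 2954. In replicate 1 their best ranks were 1021, 2365 and 2789, so kars-1 was ahead of tars-1 (1778) there. In replicate 2 their best ranks were 8263, 9956 and 19768, and the best kars-1 summits of the replicates were 433 bp apart. Of the 20 synthetases with suffix 1, 0 had an optimal summit in the promoter and 11 a pooled candidate, and of the 12 with suffix 2 the counts were 1 and 7. As shares these were 0.00% and 55.0% for suffix 1 and 8.33% and 58.3% for suffix 2, beside 1.93% and 33.6% of all protein-coding genes. With so few genes, nothing is read from this split. The suffix is not a guide to the compartment in this species, since RefSeq names aars-1 as mitochondrial and aars-2 as cytoplasmic. Their pooled ranks were 23528 and 10736, and neither had a candidate in replicate 2. The glutamate synthetases differed, with ears-2 at rank 32 and ears-1 at rank 5420, with its summit 172 bp inside the gene and no candidate in replicate 1.

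No candidate in any of the 4 lists was found at 14 members (23.3%, beside 54.2% of all protein-coding genes). They were the synthetase genes cars-1, fars-2, gars-1, hars-1, lars-2, mars-2, rars-1, sars-1, sars-2 and wars-1, and the initiation factor genes eif-2alpha, eif-2Bdelta, eif-2Bepsilon and ife-1. Another 6 had a candidate in 1 replicate but none in the pooled list, namely dars-2, eif-2beta, fars-1, inf-1, lars-1 and yars-1. These 6 of 60 stand beside 12.2% of all protein-coding genes (2429 of 19983). The depth behind the lists is unknown, so a promoter without a candidate was not shown to be unbound.

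The best pooled summits of the 40 members lay mostly upstream of the start (35 of 40, 87.5%), at a median of -319 bp (quartiles -668 and -58.5), close to the -314 bp over 6716 genes with a candidate. The 4 optimal summits lay at -42, -440, -471 and -756 bp. Over the 385 genes the median was -297 bp and 96.9% of the summits lay upstream.

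**Figure D4:**
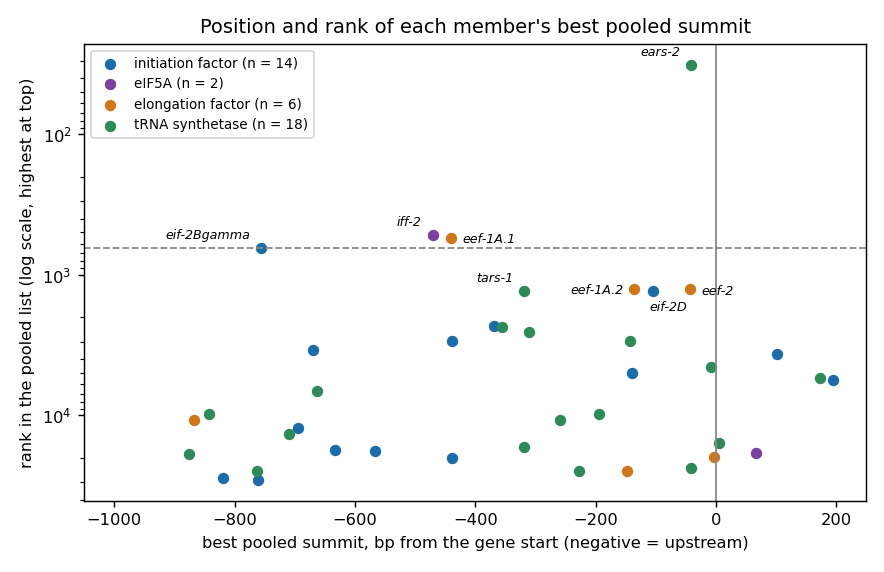
Distance in bp from the gene start to the best pooled summit (horizontal axis, negative upstream) and its rank in the pooled list (log axis, highest at top) for the 40 members with a pooled candidate, coloured by role, with the top 8 named. The dashed line is rank 649. Most points (35 of 40) lie left of the start, and the points above rank 2000 lie between -756 and -42 bp.

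Members more often had a start of another gene close upstream on the opposite strand, within 1000 bp, than genes in general (24 of 60, 40.0%, beside 17.5% of 19971 nuclear genes). Over all nuclear genes, those of this arrangement had candidates more often than the rest. Among the 24 members, 2 had an optimal summit (8.33%, beside 4.49% of 3498 genes of this arrangement) and 19 a pooled candidate (79.2%, beside 44.5%). Among the other 36 members, 2 had an optimal summit (5.56%, beside 1.32% of 16473 genes) and 21 a pooled candidate (58.3%, beside 31.3%). For 3 of the 4 members the optimal summit was also in the promoter of another gene, as it was for 199 of the 385 genes (51.7%), and for 22 of 40 the best pooled summit was (55.0%, beside 28.2%).

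The 6-mers had these shares. In the 101-bp windows at the best pooled summits of the 40 members CCGCAC was in 2 (5.00%), CGCACA in 2 (5.00%), CCGCCC in 5 (12.5%), CGAACC in 2 (5.00%) and GTTCGA in 5 (12.5%). Over 629 nuclear optimal windows the shares were 11.0%, 12.4%, 11.9%, 16.5% and 19.1%, and over 29350 lower-ranked pooled windows 2.40%, 3.18%, 3.66%, 2.21% and 3.46%. In the 219 optimal windows at promoters away from small RNA genes CCGCAC and CGCACA, which overlap in CCGCACA, were each in 24.7%, CCGCCC was in 17.4%, GTTCGA in 2.74% and CGAACC in 1.37%. The whole promoter held CCGCAC in 21.7% of the 60 members and 15.7% of nuclear genes, and CGCACA in 33.3% and 23.1%. The order was the other way for CCGCCC, at 11.7% of members and 19.3% of genes. The shares were close for CGAACC, at 18.3% and 17.4%, and for GTTCGA, at 35.0% and 35.6%. None of these differences was tested. A match describes the letters only.

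Beyond the promoter, 1 member held an optimal summit inside the gene (1.67%, background 1.15%). This was fars-1, a phenylalanine synthetase gene, at rank 171 with a score of 416.4. The summit, at position 6212848 of chromosome I, lay in an intron 1738 bp from the start, and overlapping regions ranked 177 in replicate 1 and 168 in replicate 2. The snoRNA gene T08B2.13, the tRNA pseudogene T08B2.t1 and the noncoding gene T08B2.14 lay within 200 bp of it, and it was also in the promoter of mrpl-23.

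For comparison within translation, 13 of 110 other genes matched from a list had an optimal summit in the promoter, and 85 had a pooled candidate. The shares of all protein-coding genes were 1.93% and 33.6%. The 13 were 4 of 11 subunits of initiation factor 3, 8 of 78 genes named rpl- or rps- and 1 of 3 termination and recycling genes, erfa-3. Outside the stated rule, that gene was named after its value was seen. None of 5 genes of mRNA binding and initiation, 7 of kinase and stress control, 2 of hypusine synthesis and the remaining synthetase subunit, and 4 mitochondrial translation factors had one. Of these 21 genes outside the ribosome and initiation factor 3, 15 had a pooled candidate. So did 8 of the 11 subunits of initiation factor 3 and 62 of the 78 rpl- or rps- genes, beside 40 of 60 members. The difference between these lists and the members was not tested.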

How the data were processed

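The authors' deposited lists give regions on assembly ce11. Per the read-me texts, candidates for each replicate, and for both together, derive from their alignments and 1 further alignment that also made the control-normalized signal, and the optimal list, named for the irreproducible discovery rate (IDR), derives from those 3. No source used here names the aligner, caller or threshold, and depth is unknown. Each line carries the authors' score, as deposited, which ranked peaks within a list, and a deposited −log10 of a q-value, which was not used because many top lines share 1 value. The 649 optimal lines, at 627 regions, were the top 649 of the pooled list.

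Genes came from RefSeq WBcel235, and list ends were checked against its chromosome lengths. Python 3.11.15 was used. A summit (column 2 plus column 10) was assigned to every promoter that held it. The assignment was tested on simulated data. No test between groups was possible, so counts stand beside the share of all protein-coding genes. The named genes were every member with an optimal summit or a pooled rank up to 2000, the best of each role class, members with no pooled candidate, and neighbours that share a bound promoter. The values of other members, up to rank 3000 and below, were added after they were seen. Members, lists and 6-mers were chosen with earlier results of these data known. Alternatives were other windows, starts, overlaps, symbols, list lengths and backgrounds, and leaving out each replicate.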

Additional observations from a re-analysis of the deposited data

How the results depend on the processing

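The count of 4 members with an optimal summit was 3 in a shorter window (background 1.36%) and without small RNA genes (background 1.55%). It was 4 with all transcript starts (background 2.06%), a longer window (2.59%) and region overlap (2.16%). All transcript starts, the longer window and region overlap each keep every summit already counted, so they could not lower the count. Older symbols gave the same 60 members. Another background cannot change the count, but 4 of 40 members then stood beside 5.73% of 6716 genes with a pooled candidate. The count fell to 1, ears-2, in the higher-scoring 324 lines (1.67%, background 0.951%). Without either replicate, using the top 649 lines of the other, the lowest and highest counts were 2 and 2 (3.33%, background 1.76% and 1.89%). Only ears-2 was in both of these. With the arrangement of upstream starts split, chosen after seeing the data, the 4 became 2 and 2. The count of 40 members with a pooled candidate was 27 (45.0%, background 21.4%) in the shorter window and 45 (75.0%, background 46.3%) in the longer, so the background moved too, and was 34 (background 30.7%) without replicate 1 and 39 (background 33.9%) without replicate 2. It was 26 in the top 15000 lines (43.3%, background 20.5%), and 19 and 21 in the split. The 1 member in the top lines of both replicates became 3 in the top 1298 lines (5.00%, background 1.99%), with iff-2 and eif-2Bgamma added. The cause of these moves was not tested, beyond the fewer lines or genes that each setting holds. No paired analysis was possible because there is only 1 group. Unknown depth limits what a missing candidate says.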
